A study of Mus musculus with 11 samples.

Results

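The genes described here make cholesterol and fatty acids or control and export them: 34 named genes, of which 33 had a row of their own among the 18193 genes measured. Where several probe sets were annotated to a gene alone, the brightest by its 11-array mean stood for it. Expression of Acat2, the cytosolic thiolase at the start of the sterol pathway, was not analysed here; its promoter is counted with those of the others. RNA of CD4 T cells was hybridised to 1 Affymetrix array per sample. Mice 6 to 8 weeks old gave the cells, which were enriched with a CD4 positive selection kit and then sorted on GFP more than once. The TN group (n = 3) is naive cells negative for Foxp3, the factor that defines regulatory T cells. The Treg group (n = 5) is Foxp3-positive cells. The GFPKO group (n = 3) is GFP+ cells from Foxp3GFPKO/WT mice, whose name gives a GFP-marked knockout allele beside a wild-type one. Foxp3 lies on the X chromosome, so such heterozygous females also have regulatory T cells that use the wild-type allele. The labels do not say whether an array came from 1 mouse or from a pool, so the p-values reflect no more than array-to-array spread, part or all of which may be technical. Values are on the log2 scale, a difference of 1 being 2-fold.

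Cholesterol is built from acetyl-CoA through mevalonate, farnesyl diphosphate, squalene and lanosterol. Fatty acids are built from acetyl-CoA and malonyl-CoA and then elongated and desaturated. The transcription factors SREBP1 and SREBP2, made from Srebf1 and Srebf2, switch on most genes of both routes when the protein SCAP carries them from the endoplasmic reticulum to the Golgi, and INSIG proteins hold them back when sterols are plentiful. T cells that leave rest and divide are known to raise both routes, and Abca1 and Abcg1, induced by the oxysterol receptors LXR, export sterol from the cell.

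The promoters of these genes are shown because SREBP acts on them together with the factor NF-Y, which binds the CCAAT box. RefSeq (GRCm38.p6) gave promoter windows of one length around the start site for 26 of the 34 genes; Fdps, Fdft1, Sqle, Scd1, Scd2, Fads1, Abcg1 and Stard4 had no entry. CCAAT was found on either strand in 20 of the 26 genes (76.9%), against 41.1% of all 27025 genes with a window. By role it was in 5 of 6 mevalonate genes, 8 of 8 genes of the squalene and sterol steps, 3 of 4 regulators, 2 of 3 genes of fatty acid synthesis, 2 of 4 desaturases and elongases and 0 of 1 gene of transport and export. The E-box CACGTG was in 7 genes (26.9%), against 8.09% of all genes. The sterol response element core TCACNCCAC was found in 1 gene, Hmgcs1 (3.85%), against 1.44% of all genes, and the LXR element, AGGTCA repeated directly after a gap of 4 bases, in 0 of 26 on either strand, against 0.0148%. A gene can have several windows. Counted over windows, CCAAT was in 21 of the 33 windows of the 26 genes (63.6%) against 37.4% of all 32851 windows. CACGTG was in 24.2% against 7.15%, TCACNCCAC in 3.03% against 1.24% and the LXR element in 0 against 0.0152%. A match is a run of letters in a window and not a measured binding site.

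Shown are the 200 bases before the start site, 5′ to 3′ on the gene's strand, of genes chosen after their values were seen: Hmgcs1 and Idi1, whose arrays spread widely within a group; Mvd, Ebp and Nsdhl, which stood higher in Treg than in TN without passing the test; and Fasn. Capitals mark CCAAT on either strand (ATTGG where it lies on the other strand) and, in Hmgcs1, the run TCACCCCAC.
Hmgcs1, chr13:119690151-119690350, plus strand: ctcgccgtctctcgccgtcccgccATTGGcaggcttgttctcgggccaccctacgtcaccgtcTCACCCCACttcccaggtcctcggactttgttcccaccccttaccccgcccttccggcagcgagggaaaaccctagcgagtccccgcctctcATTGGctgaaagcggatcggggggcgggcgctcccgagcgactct
Idi1, chr13:8885406-8885605, plus strand: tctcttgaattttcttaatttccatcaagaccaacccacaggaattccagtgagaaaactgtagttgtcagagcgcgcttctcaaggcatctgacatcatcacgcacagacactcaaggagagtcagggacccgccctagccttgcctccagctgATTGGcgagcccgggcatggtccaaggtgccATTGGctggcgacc
Mvd, chr8:122443423-122443622, minus strand: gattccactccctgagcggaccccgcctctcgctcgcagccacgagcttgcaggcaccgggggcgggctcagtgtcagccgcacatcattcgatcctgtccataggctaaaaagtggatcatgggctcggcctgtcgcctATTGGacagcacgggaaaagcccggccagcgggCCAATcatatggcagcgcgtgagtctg
Ebp, chrX:8193513-8193712, minus strand: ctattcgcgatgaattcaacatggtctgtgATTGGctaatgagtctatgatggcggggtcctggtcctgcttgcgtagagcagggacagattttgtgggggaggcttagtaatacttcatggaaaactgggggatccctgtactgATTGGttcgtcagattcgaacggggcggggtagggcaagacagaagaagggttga
Nsdhl, chrX:72918321-72918520, plus strand: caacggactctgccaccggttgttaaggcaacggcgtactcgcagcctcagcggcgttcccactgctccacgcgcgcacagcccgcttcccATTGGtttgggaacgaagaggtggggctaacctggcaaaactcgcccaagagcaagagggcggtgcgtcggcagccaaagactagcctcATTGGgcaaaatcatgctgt
Fasn, chr11:120824548-120824747, minus strand: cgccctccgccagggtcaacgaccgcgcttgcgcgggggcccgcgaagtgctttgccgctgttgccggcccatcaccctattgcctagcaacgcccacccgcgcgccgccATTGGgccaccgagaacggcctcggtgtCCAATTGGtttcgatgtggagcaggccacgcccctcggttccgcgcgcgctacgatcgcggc
Hmgcs1, Idi1, Mvd, Ebp and Nsdhl each had 2 CCAAT matches in this stretch and Fasn 3, of which 2 overlap.

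The arrays were checked before the genes were compared. Foxp3 read 6.75 to 7.19 in GFPKO but 3.29 to 3.64 in Treg, no higher than the 3.12 to 3.99 of TN. The place of its probe set in the transcript is not known here, so "Treg" means the arrays labelled so. Xist read 11.07 to 11.85 in GFPKO and at most 3.96 elsewhere, while the Y-linked Eif2s3y, Kdm5d and Uty were each lower in every GFPKO array than in any other, so that sex and genotype cannot be told apart in any comparison with GFPKO. The difference of the actin control between its 3′ and 5′ ends, a measure of RNA integrity, was 0.77 and 0.83 in GFPKO replicates 1 and 2 and 0.38 to 0.61 on the other 9 arrays. Cd3e, a chain of the T cell receptor complex, had group means of 10.72 to 10.87, and Cd4 had means of 7.69 to 8.11. Of the 7 CD4 T cell markers measured, Cd28 was called lower in Treg than in TN (-0.63, adjusted p = 0.0237) and than in GFPKO (-0.73, adjusted p = 0.0118), and Cd2 was called higher in Treg than in TN (0.41, adjusted p = 0.0213). Of the 14 myeloid and dendritic markers measured, 8 were called in Treg against TN (7 lower, 1 higher) and 7 in GFPKO against TN (all lower). The mean of that list was 4.81 to 5.28 in TN, 4.15 to 4.39 in Treg and 3.996 to 4.20 in GFPKO. The mean of 7 NK and CD8 T cell markers was 5.99 to 6.32 in TN, 4.90 to 5.08 in Treg and 4.64 to 4.93 in GFPKO, with 3 and 5 of them called lower than in TN. The widest falls were in Klrd1 (means of 8.83 in TN and 3.15 in Treg) and Prf1 (7.92 and 5.71). The other 4, Cd8a, Cd8b1, Ncr1 and Gzma, were not called in Treg against TN, and Cd8a was higher there (4.83 and 5.17). The highest Foxp3 value of TN, 3.99, is taken here as the background. Itgam, Cd14 and Xcr1 had means below it in each group (2.52 to 3.34), but other markers of the list did not: the TN mean was 7.87 for Tyrobp, 7.32 for Mpeg1 and 5.24 for Siglech, Csf1r had means of 5.72 to 5.81 in the 3 groups, and Lyz2, the marker called higher in Treg, had a Treg mean of 7.02. Of the 9 B cell markers measured, 2 were called in Treg against TN (1 higher, 1 lower) and 3 in GFPKO against TN (1 higher, 2 lower). In Treg against GFPKO 2 were called, both higher. Cd79b was the marker called higher than in TN, by 3.27 in Treg and 1.65 in GFPKO. In sorted bulk samples, fewer cells of a type and less RNA per cell cannot be told apart.

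In Treg against TN, 2 of the 33 genes rose and none fell: Fdft1, the squalene synthase that commits the pathway to sterols, and Scd2, a stearoyl-CoA desaturase that makes monounsaturated fatty acids. This is 6.06% of the genes, against 9.97% of all genes called in either direction and 6.54% called higher (limma, adjusted p under 0.05 over all genes). The median difference over the 33 was 0.07, against 0.03 over all genes. At an unadjusted p under 0.05 there were 6: Fdft1, Scd2, Mvd, Ebp, Nsdhl and Cyp51, each higher in Treg. The groups did not overlap for 4 of the 33 genes, against 19.5% of all genes. All 33 intervals (95%, not adjusted) lay within 2-fold, and 22 lay within 1.5-fold.

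**Figure D1:**
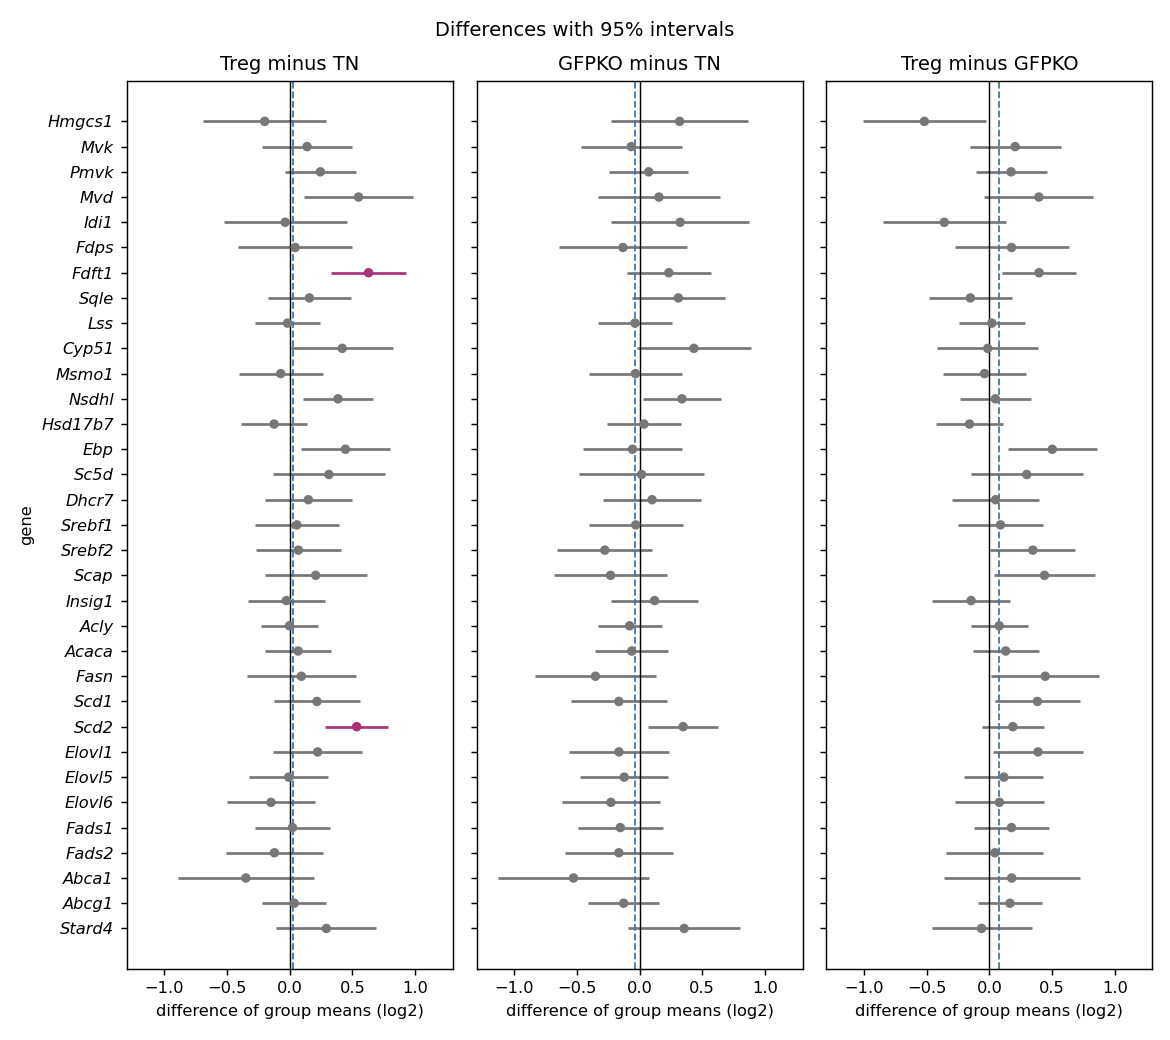
Difference of group means on the log2 scale (x axis) for each gene (y axis) in the 3 comparisons. Points are the fitted differences, lines their unadjusted 95% intervals, purple marks the 2 genes called (Fdft1 and Scd2, Treg minus TN), and the dashed line is the median of all 18193 genes; nearly all intervals stay inside a difference of 1 on either side.

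Fdft1 read 8.38, 8.01 and 7.86 in TN, 8.59, 8.52, 8.71, 8.78 and 8.95 in Treg and 8.36, 8.23 and 8.35 in GFPKO. Each Treg array was above every TN and every GFPKO array, while GFPKO lay inside the range of TN. Fdft1 was 1.55-fold higher in Treg than in TN (log2 difference 0.63 ± 0.14 SE, adjusted p = 0.007 in limma). Its difference from GFPKO was 0.40 ± 0.14 (adjusted p = 0.0945) and that of GFPKO from TN 0.23 ± 0.16 (adjusted p = 0.532). The probe set used is of the x_at class, whose probes can match other transcripts. A second Fdft1 probe set, at a mean of 7.25, gave 0.44 for Treg minus TN without being called in a fit of all probe sets (adjusted p = 0.0834). With the replicate number as a block the Fdft1 call was lost (0.53, adjusted p = 0.0596). With the mean of its 4 probe sets, 2 of them near background, as the value the difference was 0.21, again without a call (adjusted p = 0.351).

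Scd2 read 9.56, 9.31 and 9.18 in TN, 9.999, 9.84, 9.91, 9.86 and 9.83 in Treg and 9.61, 9.79 and 9.69 in GFPKO. The 3 groups did not overlap: TN was lowest, GFPKO in between and Treg highest. Scd2 was 1.45-fold higher in Treg than in TN (0.53 ± 0.12, adjusted p = 0.00641 in limma). GFPKO stood 0.35 ± 0.13 above TN (adjusted p = 0.167) and Treg 0.19 ± 0.12 above GFPKO (adjusted p = 0.375), neither of which passed. A second Scd2 probe set, at a mean of 5.88, was called in Treg minus TN (0.49, adjusted p = 0.0408 over all probe sets) and also in Treg minus GFPKO (0.50, adjusted p = 0.0383), with GFPKO at the level of TN (-0.01).

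Both calls leaned on TN replicate 3, the TN array with the lowest Fdft1 and Scd2. Without it Fdft1 stood at 0.52 (adjusted p = 0.06) and Scd2 at 0.45 (adjusted p = 0.0536), so that none of the 33 genes was called. Cell cycle genes rose in the same comparison, in 13 of 17 with a median of 1.02, and the mean of that list was 5.32 to 5.51 in TN, 6.40 to 6.88 in Treg and 5.78 to 6.06 in GFPKO; its part in the differences of Fdft1 and Scd2 was not tested, nor was that of the myeloid, NK and CD8 markers that were lower in Treg than in TN.

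**Figure D2:**
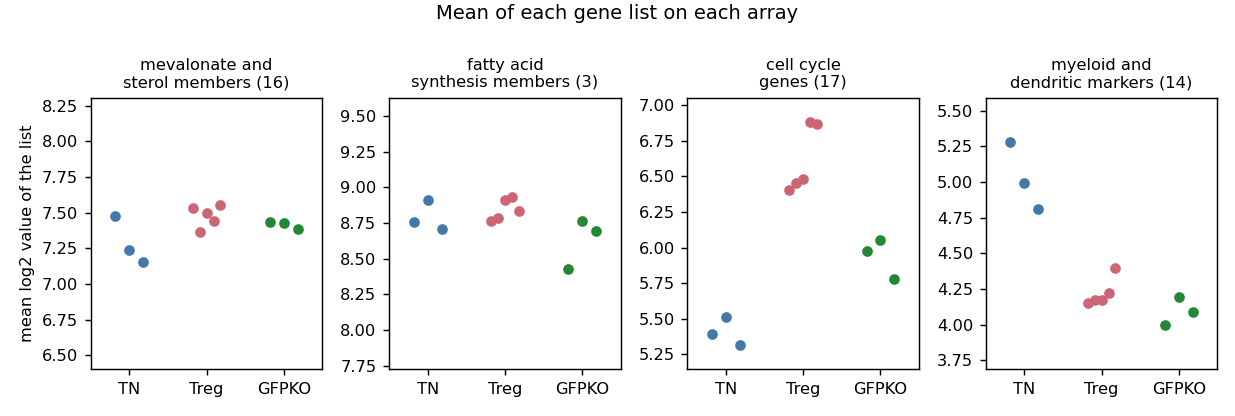
Mean log2 value of 4 gene lists on each array (y axis, the same span in each panel) in TN, Treg and GFPKO (x axis), 1 dot per array; the number of genes is in brackets. The cell cycle mean separates the groups and the myeloid mean separates TN from the others, while the sterol and fatty acid means of the 3 groups overlap.

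The first steps of the pathway, from HMG-CoA to farnesyl diphosphate, held no called gene in any comparison. Hmgcs1 encodes the HMG-CoA synthase. It read 8.54, 8.23 and 7.91 in TN, 8.52, 7.92, 8.03, 7.83 and 7.83 in Treg and 9.17, 8.40 and 8.07 in GFPKO. GFPKO replicate 1 was the highest array, and the groups overlapped. Treg minus GFPKO was -0.52 ± 0.23 (adjusted p = 0.187), or -0.76 without GFPKO replicate 3 (adjusted p = 0.0341), and Treg minus TN -0.20 ± 0.23 (adjusted p = 0.724). Idi1, the isopentenyl diphosphate isomerase, had a like range, from 6.91 to 7.46 in TN, 6.70 to 7.504 in Treg and 7.003 to 8.06 in GFPKO.

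Mvd, the decarboxylase that makes isopentenyl diphosphate, read 6.58, 6.50 and 6.59 in TN, 6.70, 6.95, 7.26, 7.18 and 7.44 in Treg and 6.13, 7.09 and 6.92 in GFPKO. Each Treg array was above each TN array, and the GFPKO arrays spread across both. The difference from TN was 0.55 ± 0.20 (adjusted p = 0.122), with an interval of 0.12 to 0.98. In a fit of Treg and TN alone, where the wide GFPKO spread does not enter, Mvd passed (adjusted p = 0.0254). A second Mvd probe set, at a mean of 6.82, gave 0.37 for Treg minus TN. It was not called (adjusted p = 0.405 in limma over all probe sets). The kinases Mvk and Pmvk and the farnesyl diphosphate synthase Fdps differed by 0.14, 0.25 and 0.04 between Treg and TN, none called.

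The steps from squalene to cholesterol held 10 genes, 1 of which was called, in Treg against TN (Fdft1). Their median difference was 0.24 in Treg minus TN (all genes 0.03), 0.07 in GFPKO minus TN (all genes -0.04) and 0.03 in Treg minus GFPKO (all genes 0.08). Ebp, the sterol isomerase, read 9.47, 9.30 and 9.29 in TN, 9.64, 9.73, 9.86, 9.72 and 10.05 in Treg and 8.81, 9.45 and 9.64 in GFPKO. The Treg arrays stood above those of TN, while the highest GFPKO array was level with the lowest Treg array at this rounding. Its differences were 0.45 ± 0.17 against TN (adjusted p = 0.127) and 0.50 ± 0.17 against GFPKO (adjusted p = 0.0765). Without GFPKO replicate 3 it passed against GFPKO (0.67, adjusted p = 0.0132), and it passed against TN when only those groups were fitted (adjusted p = 0.0206).

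Nsdhl, a dehydrogenase that helps to strip methyl groups from the sterol ring, read 7.76, 7.41 and 7.43 in TN, 7.90, 7.81, 7.98, 7.75 and 8.15 in Treg and 7.76, 7.84 and 8.01 in GFPKO. TN replicate 1 reached the lowest arrays of Treg, and GFPKO stood just above it. Treg was 0.39 ± 0.13 above TN (adjusted p = 0.0869) and GFPKO 0.34 ± 0.15 above TN (adjusted p = 0.253). Ebp and Nsdhl lie on chromosome X, and the GFPKO arrays had the female pattern described above; its part in their GFPKO values was not tested. Cyp51, the lanosterol demethylase, read 6.68, 6.31 and 6.20 in TN, 7.06, 6.58, 6.95, 6.78 and 6.71 in Treg and 7.07, 7.13 and 6.28 in GFPKO. Its differences from TN were 0.42 ± 0.19 in Treg (adjusted p = 0.23) and 0.43 ± 0.21 in GFPKO (adjusted p = 0.332), and in GFPKO 2 of 3 arrays were above all of TN. Without the other, GFPKO replicate 3, Cyp51 passed in GFPKO minus TN (0.71, adjusted p = 0.0194). A second Cyp51 probe set, at a mean of 6.27, gave 0.05 for Treg minus TN and 0.27 for GFPKO minus TN.

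The other 6 genes of this stretch were not called in any comparison. The squalene epoxidase Sqle differed from TN by 0.16 in Treg and 0.31 in GFPKO. Sc5d, a sterol desaturase, differed by 0.31 and 0.02, and Dhcr7, the enzyme of the last step of one branch, by 0.15 and 0.10. The lanosterol synthase Lss differed by -0.02 and -0.04, Msmo1 by -0.07 and -0.03 and Hsd17b7, which acts beside Msmo1 and Nsdhl, by -0.12 and 0.04. The interval of Lss in Treg minus TN was the tightest of these, from -0.28 to 0.24.

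**Figure D3:**
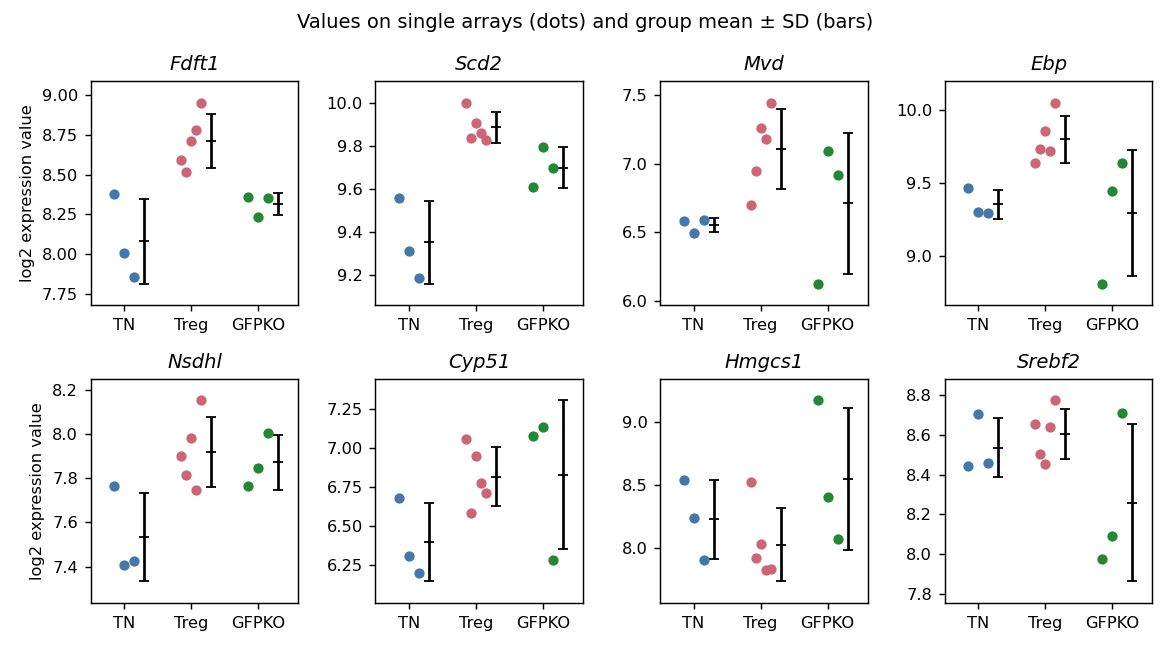
Log2 expression value (y axis) of 8 genes in TN, Treg and GFPKO (x axis), 1 dot per array, with the group mean ± SD beside the dots. Treg lies above TN without overlap for Fdft1, Scd2, Mvd and Ebp, and the GFPKO arrays spread widely for Mvd, Ebp, Cyp51, Hmgcs1 and Srebf2.

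The regulators differed little between Treg and TN. Srebf1 differed by 0.06 ± 0.16, Srebf2 by 0.07 ± 0.16, Scap by 0.21 ± 0.19 and Insig1 by -0.03 ± 0.14, none of them called. Srebf2 read 8.44, 8.71 and 8.46 in TN, 8.65, 8.50, 8.46, 8.64 and 8.77 in Treg and 7.97, 8.09 and 8.71 in GFPKO. GFPKO replicates 1 and 2 were below every other array, and replicate 3 was among the highest. Treg minus GFPKO was 0.35 ± 0.16 for Srebf2 (adjusted p = 0.203) and 0.44 ± 0.19 for Scap (adjusted p = 0.177). Without GFPKO replicate 3 both passed, Srebf2 at 0.57 (adjusted p = 0.00916) and Scap at 0.61 (adjusted p = 0.0459). Replicates 1 and 2 are the arrays with the higher actin difference. All values given here without GFPKO replicate 3, also those of other genes, rest on them. The part of the actin difference was not tested. With GFPKO replicate 1 or replicate 2 left out instead, none of the 33 genes was called in a comparison with GFPKO. The Srebf2 values above are of its brighter probe set only. A second Srebf2 probe set, at a mean of 7.77, gave 0.10 for Treg minus GFPKO and -0.07 for GFPKO minus TN. Neither was called (adjusted p = 0.8 and 0.923 in limma over all probe sets). A second Scap probe set was called in the other direction, lower in Treg than in GFPKO (-0.74, adjusted p = 0.0225 in limma over all probe sets). Its means were 3.79 in Treg, below background, and 4.53 in GFPKO, not far above it, so the size cannot be read.

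Fatty acid synthesis held no called gene. Acly, which makes cytosolic acetyl-CoA from citrate, lay between 10.31 and 10.58 on the 11 arrays, with an interval of -0.23 to 0.23 for Treg minus TN. Acaca, the carboxylase that makes malonyl-CoA, differed by 0.07 ± 0.12 between Treg and TN and by -0.06 ± 0.14 between GFPKO and TN. Fasn, the fatty acid synthase, read 8.32, 8.77 and 8.44 in TN, 8.39, 8.51, 8.52, 8.85 and 8.75 in Treg and 7.53, 8.37 and 8.57 in GFPKO. GFPKO replicate 1 was the lowest array by a wide margin. Treg minus GFPKO was 0.44 ± 0.20 (adjusted p = 0.201), or 0.65 without GFPKO replicate 3 (adjusted p = 0.0393).

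Of the desaturases and elongases, only Scd2 was called. Scd1, the desaturase of liver and fat, read 2.40 to 3.33 on the 11 arrays, below the background of 3.99, so no difference can be read from it. Fads2, a desaturase of polyunsaturated fatty acids, lay at 3.34 to 4.22, also near background. Fads1, its partner, differed by 0.02 ± 0.14 between Treg and TN. The elongases Elovl1, Elovl5 and Elovl6 differed by 0.22, -0.01 and -0.15 between Treg and TN and by -0.16, -0.12 and -0.23 between GFPKO and TN. In Treg minus GFPKO, Elovl1 was 0.39 ± 0.17 (adjusted p = 0.174), or 0.55 without GFPKO replicate 3 (adjusted p = 0.0388).

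Among the exporters, Abca1 read 7.21, 6.94 and 6.95 in TN, 7.25, 6.72, 6.97, 6.14 and 6.34 in Treg and 7.13, 6.36 and 6.03 in GFPKO. The replicates of Treg and GFPKO spread over more than 1 log2 unit, and the highest array of each reached TN. Its differences from TN were -0.35 ± 0.25 in Treg (adjusted p = 0.522) and -0.53 ± 0.28 in GFPKO (adjusted p = 0.395); the latter interval, -1.13 to 0.08, was the only one of that comparison to pass 2-fold. Abcg1 differed by 0.04 ± 0.12 and -0.13 ± 0.13. Stard4, which carries sterol between membranes, read 6.58 to 6.80 in TN, 6.57 to 7.25 in Treg and 6.63 to 7.42 in GFPKO. Its differences from TN were 0.29 ± 0.19 in Treg and 0.36 ± 0.21 in GFPKO (adjusted p = 0.447 and 0.454). A Stard4 probe set at a mean of 6.70 gave 0.39 and 0.37. Another, at 5.59, gave 0.48 in Treg but 0.01 in GFPKO, and 0.47 for Treg minus GFPKO. None of these was called in the fit of all probe sets.

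In GFPKO against TN none of the 33 genes was called in limma, and 2 (Nsdhl and Scd2) had an unadjusted p under 0.05; 5.66% of all genes were called. The groups did not overlap for those same 2, against 18% of all genes. In Treg against GFPKO none was called either, against 9.43% of all genes, and 8 had an unadjusted p under 0.05: Ebp, Fdft1, Scd1, Elovl1, Scap, Hmgcs1, Fasn and Srebf2, of which Hmgcs1 was lower in Treg. The groups did not overlap for 4, Fdft1, Scd2, Ebp and Scd1, against 14.4% of all genes. Scd1 stands in both counts although it lies below background, so its direction is not read. Of the intervals, 32 of 33 lay within 2-fold in each of these comparisons (18 and 20 within 1.5-fold), the other in Treg minus GFPKO being Hmgcs1 with -1.01 to -0.03. In the fit of all probe sets, 3 of the 79 belonging to these genes were called in Treg minus TN (7.99% of all probe sets), 0 in GFPKO minus TN (4.07%) and 2 in Treg minus GFPKO (8.6%). The comparisons share arrays, so their values are given side by side only.

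How many of the genes lay above or below 0 depended on the scaling. As deposited, 22 of 33 were higher in Treg than in TN and 25 were higher in Treg than in GFPKO, but with each array centred on its median these counts were 14 and 15, while the median of all genes moved from 0.03 to -0.11 and from 0.08 to -0.09. Of the 33, 21 and 19 were above the median of all genes in these comparisons as deposited. Centring shifts every gene of a comparison alike, so it cannot change these counts. With quantile normalization over genes again they were 23 and 20. Over all genes, 1190 were called higher and 623 lower in Treg than in TN as deposited, and 904 and 1174 after centring; for Treg against GFPKO the counts were 1252 and 464, and 675 and 899, or 922 and 656 with quantile normalization over genes again. In GFPKO against TN 14 of the 33 lay above 0 as deposited and centred, and 18 with quantile normalization. Fdft1 and Scd2 were called higher in Treg than in TN under each scaling.

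The genes also varied among arrays of one group. Of the 16 genes of the mevalonate and sterol steps, 12 had their highest TN value in replicate 1 and 10 their lowest in replicate 3, against 38.6% and 43.1% of all genes. The mean of the 16 was 7.48, 7.24 and 7.15 in TN, 7.37 to 7.56 in Treg and 7.38 to 7.44 in GFPKO, so that TN replicate 1 lay among the Treg arrays. TN replicate 1 also had the highest mean of myeloid and dendritic markers, 5.28; its part was not tested. For 7 of the 33 genes (Hmgcs1, Idi1, Sqle, Msmo1, Insig1, Elovl6 and Abca1) replicate 1 was the highest array in each group, which is 21.2%, against 7.87% of all genes. For Srebf1, Scap and Fasn it was the lowest array in each group, 9.09% against 6.55%. GFPKO replicate 1 was the highest of the 11 arrays for 6 of the 33 (Hmgcs1, Idi1, Sqle, Sc5d, Elovl6 and Stard4), which is 18.2%, against 11.6% of all genes. It was the lowest for 12 (Mvk, Mvd, Ebp, Dhcr7, Srebf1, Srebf2, Scap, Acly, Fasn, Elovl1, Fads1 and Abcg1), 36.4% against 28% of all genes, so that this array stood apart over genes in general.

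**Figure D4:**
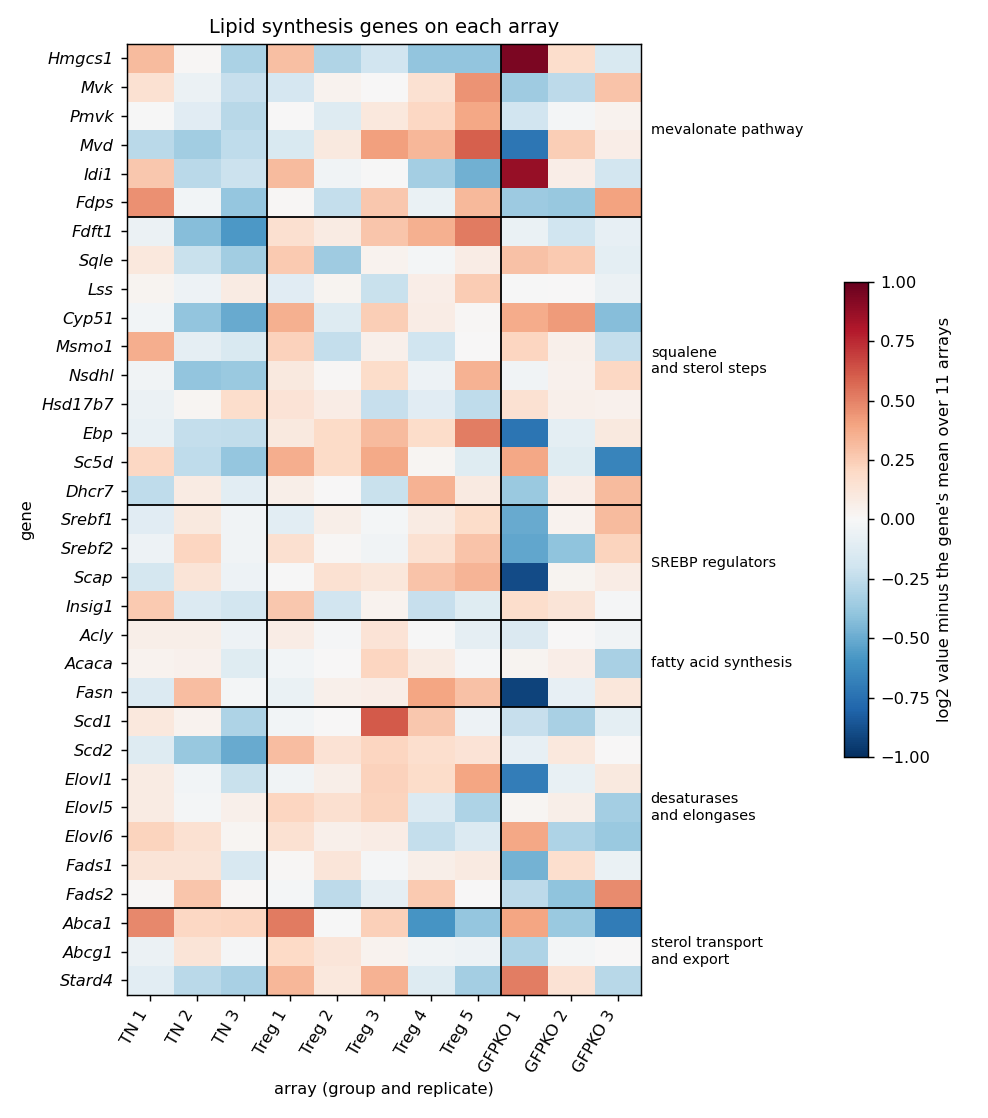
Log2 value of each gene (rows, grouped by role) on each array (columns, grouped as TN, Treg and GFPKO) minus the gene's mean over the 11 arrays; red is above and blue below that mean. GFPKO replicate 1 shows the strongest colours in both directions, and most rows show no shift shared by a whole group.

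Other genes of lipid metabolism came from lists of sterol and SREBP genes (11 of 16 measured), fatty acid and glycerolipid genes (27 of 28) and LXR and sterol sensing genes (12 of 14). In Treg minus TN 6 of them were called, 2 higher and 4 lower; over all genes the called shares were 9.97% here, 5.66% in GFPKO minus TN and 9.43% in Treg minus GFPKO, and nothing particular to the lists is read from their counts. Dgat2, which makes triglyceride, read 4.92 to 4.97 in TN, 5.79 to 6.30 in Treg and 4.79 to 5.11 in GFPKO. It stood higher in every Treg array than in any other, by 1.05 ± 0.13 over TN (adjusted p = 4.18e-05) and 1.03 ± 0.13 over GFPKO (adjusted p = 0.000124). Rxra, the partner of LXR, rose by 0.82 and 0.74 in the same comparisons. Mylip, an LXR target that marks lipoprotein receptors for breakdown, read 9.77 to 9.87 in TN, 8.77 to 9.14 in Treg and 9.24 to 9.43 in GFPKO. It was lower by 0.87 in Treg (difference -0.87 ± 0.12, adjusted p = 1e-04) and by 0.48 in GFPKO (-0.48 ± 0.13, adjusted p = 0.0453).

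Acss2, which makes acetyl-CoA from acetate, fell by 0.77 in Treg against TN. Elovl7, an elongase, read 4.40 to 4.90 in TN and 2.64 to 3.16 in the other groups, at background there, so that its differences of -1.82 and -1.65 are lower bounds on the size. Npc2, which carries cholesterol out of lysosomes, was -0.50 in Treg and -0.46 in GFPKO against TN, both called; its Treg value was added after the values were seen. In GFPKO minus TN 6 were called as well, all lower, the others being Cyp27a1 (-0.72), Hacd2 (-0.63) and Hacd3 (-0.49). Hacd2 and Hacd3 are dehydratases of elongation. Cyp27a1, a sterol hydroxylase, read 4.05 to 4.18 in GFPKO, near background, so the size of its difference is uncertain. The myeloid markers described above were lower in GFPKO as well; their part in the lower values of these lists in GFPKO and Treg against TN was not tested. In Treg minus GFPKO 5 were called, all higher: Dgat2, Rxra, Hacd3 (0.87), Slc25a1 (0.82) and Mecr (0.43), of mitochondrial fatty acid synthesis. Slc25a1, which exports citrate from mitochondria, read 7.12 to 7.63 in Treg and 5.98, 6.22 and 7.29 in GFPKO. GFPKO replicate 3 thus lay inside the range of Treg. The lower replicates 1 and 2 are the arrays with the higher actin difference. Counts for the lists with that difference as a covariate are given further below, but its part in the Slc25a1 values was not examined. By list, 1 of the 11, 3 of the 27 and 2 of the 12 were called in Treg minus TN, with medians of -0.15, 0.00 and 0.08.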

How the data were processed

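Biotin labelling and hybridisation followed Affymetrix's protocol, per the labels. The deposited values are log2 values that the authors made with RMA, per the submitters' processing notes; RMA corrects background, applies quantile normalization and summarises the probes of a probe set. Its version is not given in the sources used here, and the log base was read from the values (1.54 to 14.65). From 34945 probe sets with 1 gene symbol, 18193 genes were taken. No detection calls were used, so dim genes were kept. Group means were fitted to all 11 arrays with limma 3.58.1 (R 4.3.3) and moderated by eBayes. Tests were two-sided, with Benjamini-Hochberg adjustment over all genes of a comparison and a threshold of 0.05. The fit was tested on simulated data. Precision is limited by the number of arrays. The genes and lists were chosen with earlier results of these data known. By the naming rule, all genes of the main list are accounted for, and of the other lists only called genes are named, at most the 6 with the greatest difference per comparison. Alternatives covered the choice of probe set, a filter on dim genes, scaling, the arrays in the fit, moderation, array weights, the replicate block and each array left out.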

Additional observations from a re-analysis of the deposited data

How the results depend on the processing

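The counts below are of called genes, first for Treg against TN, then GFPKO against TN, then Treg against GFPKO. As reported they were 1813, 1029 and 1716 of all genes, 2, 0 and 0 of the 33 synthesis genes, and 6, 6 and 5 of the other lipid lists. Array weights moved them furthest, to 3223, 5051 and 6756 of all genes, 5, 9 and 8 of the 33, and 13, 19 and 22 of the other lists. Fitting only the groups compared gave 562 genes in GFPKO minus TN, 4 of the 33 in Treg minus TN, and 11, 2 and 3 of the other lists. The mean of all probe sets gave 1 of the 33 in Treg minus TN and 3 of the other lists in GFPKO minus TN. The probe set with the largest variance gave 2 of the 33 in Treg minus GFPKO and turned Scap there, from 0.44 to -0.74. The actin difference as a covariate, chosen after seeing the data, gave 570 and 811 genes in GFPKO minus TN and Treg minus GFPKO, 4 of the 33 in Treg minus TN, and 2 and 2 of the other lists in the GFPKO comparisons.

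Leaving out each array in turn gave 1360 to 2398, 644 to 1868 and 1134 to 3421 genes, 0 to 4, 0 to 2 and 0 to 6 of the 33, and 5 to 10, 2 to 8 and 2 to 11 of the other lists. The count of 0 in Treg minus TN came without TN replicate 3. The highest counts in both GFPKO comparisons came without GFPKO replicate 3, and the highest in Treg minus TN without GFPKO replicate 1. Without GFPKO replicate 1 or without replicate 2, none of the 33 was called in either GFPKO comparison. The cause was not tested for any of these.

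Deviations of the replicate 1 arrays correlated over genes at 0.207, 0.157 and 0.507 in the 3 comparisons, and those of replicates 2 and 3 at -0.22 to 0.068. Only the replicate 1 arrays of Treg and GFPKO, at 0.507, stood apart in size. The replicate numbers as a whole showed no pairing shared by all arrays. With the replicate block, 1049 genes were called in Treg minus GFPKO, 1 of the 33 (Scd2) in Treg minus TN and 3 of the other lists in GFPKO minus TN; Fdft1 was at 0.53 (adjusted p = 0.0596). With 3 to 5 arrays per group, and Scd1 and Fads2 at or near background, small differences were not detectable.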

Other observations

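Of 12 listed genes that burn fatty acids rather than make them 11 were measured. In Treg minus TN 2 were called, 1 higher and 1 lower (18.2%, against 9.97% of all genes; limma, adjusted over all genes). In GFPKO minus TN 1 was lower (9.09% against 5.66%), and in Treg minus GFPKO 2 were higher (18.2% against 9.43%). Their median differences were 0.04, -0.16 and 0.24, against 0.03, -0.04 and 0.08 over all genes. Acadm, the medium-chain acyl-CoA dehydrogenase, read 8.72 to 8.78 in TN, 7.98 to 8.38 in Treg and 7.87 to 8.69 in GFPKO. It was lower in Treg than in TN (-0.56 ± 0.17, adjusted p = 0.045), and in GFPKO its difference from TN did not pass (-0.40 ± 0.19, adjusted p = 0.295). Cpt2, which frees fatty acids from carnitine inside mitochondria, read 7.56 to 7.87 in Treg and 6.83 to 7.45 in GFPKO. It was higher in Treg than in GFPKO (0.50 ± 0.15, adjusted p = 0.0481), and each Treg array was above each GFPKO array. The other calls, named after their values were seen, were Slc25a20, the carnitine carrier, higher in Treg than in TN (0.53 ± 0.14, adjusted p = 0.0233), and Acadl, the long-chain dehydrogenase, lower in GFPKO than in TN (-0.44 ± 0.12, adjusted p = 0.0439) and higher in Treg than in GFPKO (0.41 ± 0.11, adjusted p = 0.0275).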
